A study of Mus musculus with 18 samples.

Results

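The 10 genes described here are the fibroblast growth factor (Fgf) receptor genes Fgfr1, Fgfr2 and Fgfr3, the ligand gene Fgf15, and 6 genes that act downstream of the receptors: Spry1, Spry2, Spry4, Etv4, Etv5 and Dusp6. They were chosen by the gene symbols in the authors' deposited results, among 37620 annotated genes that the authors counted. Genes without a symbol there could not be matched. All 10 were present and passed the filter on low counts. The study sorted cells of the lateral cortex of C57BL/6 mouse embryos at embryonic day 14.5, after the meninges and ganglionic eminences had been taken off. All groups carried the genotype labelled Btg2GFP/Tubb3GFP, a pair of fluorescent reporters, although titles give RFP as the colour of the Btg2 reporter. Proliferating progenitors (PP) were negative for the Btg2 reporter, differentiating progenitors (DP) positive for it, and neurons (Neuron) positive for the Tubb3 reporter. Each group had 3 libraries, which the design calls biological replicates, each from cells of more than 3 embryos of different litters.

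Libraries held 34337209 to 55935128 counts, and levels are given as CPM, the counts of a gene per 1 000 000 counts of its library after scaling. Summed markers followed the labels. Over 10 radial glia genes the sum was 5998 to 6905 CPM in PP, 2826 to 4070.1 CPM in DP and 325 to 421 CPM in Neuron. Over 6 neuronal genes it was 115 to 279 CPM, 1649 to 2332 CPM and 7354 to 7903 CPM. Over 6 intermediate progenitor genes, among them the sorted gene Btg2, it was 1322 to 1331 CPM, 2901 to 4226 CPM and 594 to 659 CPM. Each group also held RNA of other cells. Over 7 red blood cell genes the sum was 8359 to 15287 CPM in PP and 9.04 to 118 CPM in the other groups. Over 8 genes of ventral progenitors and interneurons it was 5.59 to 56.5 CPM in PP, 29.9 to 162 CPM in DP and 392 to 426 CPM in Neuron. Over 5 genes of the cortical hem and choroid plexus it was 20.3 to 58.5 CPM in PP, 43.2 to 90.6 CPM in DP and 3.86 to 4.55 CPM in Neuron. In bulk samples, fewer cells of a type and less RNA per cell cannot be told apart.

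As background, Fgf ligands bind receptor tyrosine kinases together with heparan sulphate and switch on the Ras and ERK cascade. ERK activity induces the Ets transcription factor genes Etv4 and Etv5, and it also induces inhibitors of the same cascade, the Sprouty genes and the ERK phosphatase gene Dusp6. In the embryonic cortex Fgf signalling is known for keeping radial glia dividing and for patterning areas from front to back.

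The promoters of Dusp6, Spry1 and Etv5 are shown because these targets of a shared cascade took different courses across the sort. RefSeq windows (GRCm38.p6) run from 250 bases before to 50 after an annotated start, and 8 windows matched 6 of the 10 genes. Capitals mark GGAA or its reverse complement TTCC, the core that Ets factors bind. The windows are chr10:99262981-99263280 on the plus strand for Dusp6, chr3:37639697-37639996 on the plus strand for Spry1, and chr16:22438319-22438618 and chr16:22439521-22439820 on the minus strand for the 2 starts of Etv5.
Dusp6: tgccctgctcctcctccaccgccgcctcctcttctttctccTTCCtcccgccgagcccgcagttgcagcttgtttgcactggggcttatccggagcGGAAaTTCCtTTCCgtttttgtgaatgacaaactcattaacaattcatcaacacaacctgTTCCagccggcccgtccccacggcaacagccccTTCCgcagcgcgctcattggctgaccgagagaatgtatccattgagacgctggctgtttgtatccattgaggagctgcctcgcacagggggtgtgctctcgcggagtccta
Spry1: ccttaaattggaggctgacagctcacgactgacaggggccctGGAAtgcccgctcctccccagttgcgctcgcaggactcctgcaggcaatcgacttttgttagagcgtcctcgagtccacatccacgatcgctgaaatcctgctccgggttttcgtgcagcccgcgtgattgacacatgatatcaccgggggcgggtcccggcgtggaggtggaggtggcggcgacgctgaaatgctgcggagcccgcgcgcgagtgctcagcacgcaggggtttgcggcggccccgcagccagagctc
Etv5, first window: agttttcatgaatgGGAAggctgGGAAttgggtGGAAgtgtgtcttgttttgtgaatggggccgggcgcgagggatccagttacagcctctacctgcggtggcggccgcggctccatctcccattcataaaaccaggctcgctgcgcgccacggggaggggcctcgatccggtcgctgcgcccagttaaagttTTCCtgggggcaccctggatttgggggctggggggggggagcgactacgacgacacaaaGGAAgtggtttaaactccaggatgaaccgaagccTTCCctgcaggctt
Etv5, second window: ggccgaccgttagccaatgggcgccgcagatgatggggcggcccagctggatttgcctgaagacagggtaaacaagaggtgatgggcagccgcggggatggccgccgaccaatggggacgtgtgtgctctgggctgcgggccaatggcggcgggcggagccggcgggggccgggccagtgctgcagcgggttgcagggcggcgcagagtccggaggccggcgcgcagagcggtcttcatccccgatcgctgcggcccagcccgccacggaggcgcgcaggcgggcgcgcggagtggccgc
The core occurred 6 times in the Dusp6 window, 1 time in the Spry1 window, and 6 and 0 times in the Etv5 windows. It occurred 5 times in the Spry2 window, 4 times in the Fgfr2 window and 1 and 5 times in the Fgfr3 windows. Of 32851 promoter windows of the same length, 96.0% hold the core on either strand, with a median of 3. The longer word CGGAAG or CTTCCG, which contains the core, was found in the Dusp6 window and in none of the other 7, against 16.9% of all windows. A match describes letters and is not a bound site.

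The 10 genes did not follow 1 course across the sort. Fgfr2, Fgfr3, Spry4, Etv4 and Etv5 fell at both steps, from PP to DP and from DP to Neuron, which is 5 of 10 genes against 10.9% of the 18627 features tested. Fgfr1 and Spry2 were called lower in DP than in both other groups (2 of 10, background 4.49%), although for Fgfr1 the DP and Neuron libraries overlapped. None of the 10 rose at both steps (background 12.4%) or peaked in DP (background 4.37%). Spry1 rose from PP to DP, Dusp6 rose from DP to Neuron, and Fgf15 fell from DP to Neuron. With a block for the sets of library numbers described below, the fall of Fgf15 from PP to DP was called too. Calls mean an adjusted p under 0.05 in edgeR's quasi-likelihood test, adjusted by Benjamini-Hochberg over all features.

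In the first step 8 of the 10 genes were called, 1 higher and 7 lower, where 41.4% of all features were called, 21.3% higher and 20.2% lower. In the second step 9 were called, 3 higher and 6 lower (background 67.3%, with 33.1% higher and 34.2% lower). Between Neuron and PP 9 were called, 2 higher and 7 lower (background 75.3%, with 36.7% higher and 38.6% lower). The median log2 fold changes of the 10 genes were -0.99, -1.64 and -3.18 in these comparisons, against -0.02, -0.04 and -0.04 over all features.

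**Figure D1:**
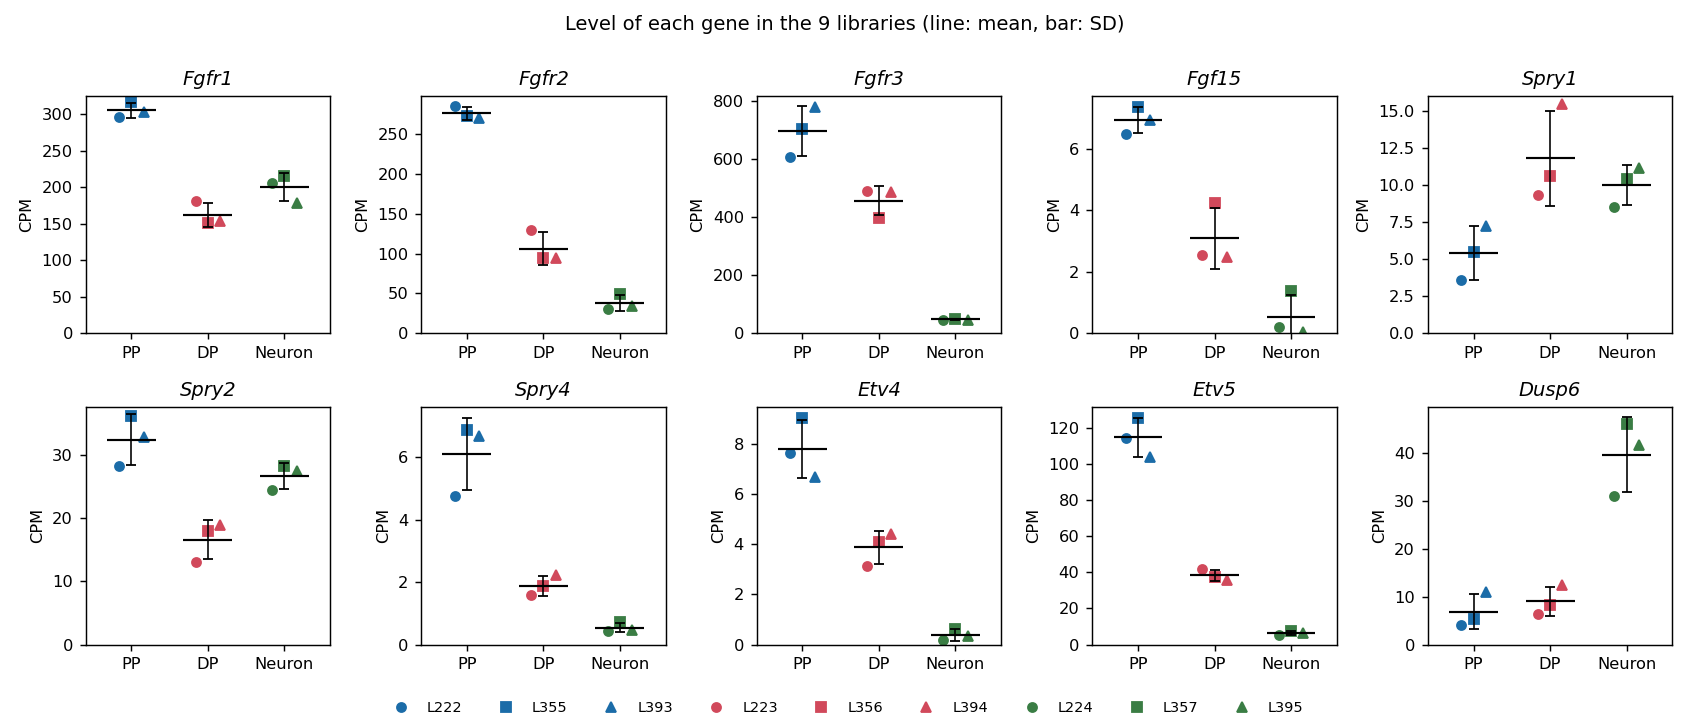
Level in CPM (y axis) of each of the 10 genes in the 3 libraries of PP, DP and Neuron (x axis), with points for libraries, lines for means and bars for SD. Fgfr3 stands at 698 ± 84.97 CPM in PP and 48.3 ± 1.57 CPM in Neuron (mean ± SD), while Dusp6 stands at 6.82 ± 3.66 and 39.5 ± 7.81 CPM.

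The receptors did not fall together. Fgfr3 (chromosome 5, 34064373 to 34079716, mm9, plus strand) had 609.6, 705 and 779 CPM in libraries L222, L355 and L393 of PP. It had 489, 398 and 486 CPM in libraries L223, L356 and L394 of DP, and 47.5, 50.1 and 47.3 CPM in libraries L224, L357 and L395 of Neuron. No groups overlapped, and the Neuron libraries lay far below the others. Fgfr3 fell 1.52-fold in the first step (log2 fold change -0.61 ± 0.10, adjusted p = 0.000606; the error is a standard error). In the second step it fell 9.48-fold (log2 fold change -3.24 ± 0.11, adjusted p = 4.53e-10).

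Fgfr2 (chromosome 7, minus strand) had 285, 273 and 269 CPM in PP, 129.9, 94.0 and 94.6 CPM in DP and 30.0, 48.8 and 33.97 CPM in Neuron, in the same order of libraries. The groups did not overlap. Fgfr2 fell 2.598-fold in the first step (log2 fold change -1.38 ± 0.17, adjusted p = 5.65e-05) and 2.82-fold in the second (log2 fold change -1.50 ± 0.17, adjusted p = 9.29e-06). Its gene model in the count table runs from 137305965 to 140315033 (mm9). This span arises because the 2 of 24 exon blocks with the highest positions lie 2863117 bases from the rest, inside Ctbp2. If Ctbp2 reads lay evenly along its exons, those blocks would hold 2.55% to 3.08% of the Fgfr2 counts in PP, 5.19% to 6.89% in DP and 11.3% to 18.6% in Neuron. With that share taken off, the change between PP and Neuron was log2 -3.05, against -2.87 before, and all 3 calls stood.

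Fgfr1 (chromosome 8, 26624126 to 26686186, mm9, plus strand) took another course, with 297, 316.8 and 303 CPM in PP, 181, 151 and 153 CPM in DP and 206, 216 and 179 CPM in Neuron. PP lay above both other groups, whereas DP and Neuron overlapped. Fgfr1 fell 1.89-fold in the first step (log2 fold change -0.92 ± 0.09, adjusted p = 1.2e-05). In the second step it rose 1.24-fold (log2 fold change 0.31 ± 0.09, adjusted p = 0.00953), and Neuron stayed below PP (log2 fold change -0.61 ± 0.09, adjusted p = 6.46e-05). Exons of Fgfr1 share 125 bases with Gm16159, a non-coding RNA gene on the other strand with 1055 counts in all. A second identifier with the same symbol covers 761 bases, all within the first. For that identifier the first step was also a fall (log2 fold change -1.06 ± 0.17, adjusted p = 0.000376), while the second missed the threshold (log2 fold change 0.14 ± 0.17, adjusted p = 0.468).

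Levels per kilobase of exon set the receptors against each other. In PP, Fgfr3 stood at 101 ± 12.4 CPM per kilobase, Fgfr1 at 37.9 ± 1.29 and Fgfr2 at 35.4 ± 1.07. In DP the levels were 66.6 ± 7.50, 20.1 ± 2.07 and 13.6 ± 2.63 CPM per kilobase in the same order of genes. In Neuron, Fgfr1 led at 24.8 ± 2.37 CPM per kilobase, with Fgfr3 at 7.02 ± 0.228 and Fgfr2 at 4.82 ± 1.27. Neighbouring receptors in these orders did not overlap in any group. The margin between Fgfr1 and Fgfr2 in PP was narrow, with 36.8 and 36.6 CPM per kilobase in L222. These Fgfr2 levels include the Ctbp2 part described above, and the order without it was not tested.

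Fgfr1 made up 22.7%, 22.2% and 20.3% of the summed receptor level per kilobase in the PP libraries, 20.4%, 21.1% and 18.7% in DP and 70.4%, 66.4% and 66.4% in Neuron. Neuron stood apart from both progenitor groups, which overlapped. The share differed between the 3 groups by an exact permutation test over the 9 libraries (p = 0.0107, adjusted over the 3 gene families 0.0161). By pair, the two-sided exact permutation p was 0.1 for Neuron against either group, the smallest that 3 against 3 allows, and 0.3 for DP against PP. Fgfr3 held 57.9% ± 3.20 of the receptor level in PP, 66.4% ± 2.63 in DP and 19.2% ± 1.27 in Neuron.

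**Figure D2:**
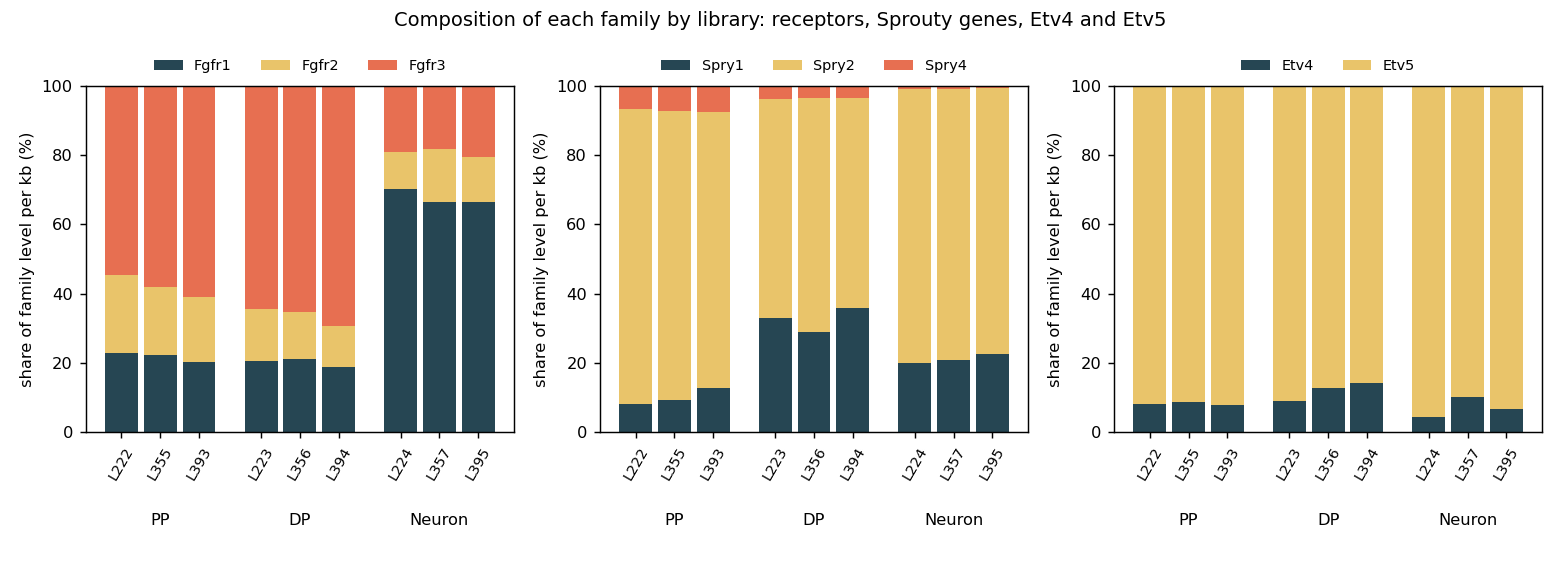
Share of each gene in the summed level per kilobase of its family (y axis, percent) for the 9 libraries (x axis), with receptors, Sprouty genes and the Etv pair in separate panels. Fgfr1 takes 66.4% to 70.4% of the receptor level in Neuron libraries and 18.7% to 22.7% in the others.

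Fgf15, the ligand gene whose human counterpart is FGF19, was a low transcript of the progenitors (chromosome 7, 152082437 to 152086858, mm9, plus strand). PP libraries held 242, 344 and 338 Fgf15 counts, DP libraries 108, 218 and 103, and Neuron libraries 9, 67 and 1. In CPM the groups stood at 6.93 ± 0.425, 3.08 ± 0.988 and 0.533 ± 0.724, and no groups overlapped. The first step missed the threshold (log2 fold change -1.16 ± 0.52, adjusted p = 0.0951), and the second was a 5.46-fold fall (log2 fold change -2.45 ± 0.62, adjusted p = 0.00430). Library L357 had most of the Neuron counts. Without L357 the first step passed (adjusted p = 0.00611) and the second was log2 -4.63. The first step also passed without L395 (adjusted p = 0.0352) and with a block for the sets of consecutive library numbers, L222 to L224, L355 to L357 and L393 to L395 (adjusted p = 0.0284). Radial glia markers in L357 summed to 353.7 CPM, between the 421 CPM of L224 and the 325 CPM of L395. Of the 10 genes, all but Spry1 were highest in L357 among the Neuron libraries. The part of progenitor RNA in the Fgf15 counts of L357 was not tested. Exons of Fgf15 share 478 bases with Gm17685, a non-coding RNA gene on the other strand with 286 counts in all against 1430 for Fgf15, and no source used here says whether the counting was by strand.

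Over all libraries the Ets factor genes had the largest falls of the 10 from PP to Neuron, although without L357 that of Fgf15 was larger (log2 -5.79, against -4.89 for Etv4). Etv5 (chromosome 16, 22381382 to 22439792, mm9, minus strand) had 115, 126 and 104 CPM in PP, 41.8, 37.3 and 35.8 CPM in DP and 5.43, 7.44 and 6.31 CPM in Neuron. The groups were far apart. Etv5 fell 2.997-fold in the first step (log2 fold change -1.58 ± 0.11, adjusted p = 9.14e-07), 5.97-fold in the second (log2 fold change -2.58 ± 0.12, adjusted p = 3.97e-09) and 17.9-fold in all.

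Etv4 (chromosome 11, 101631056 to 101646685, mm9, minus strand) was far lower, with 7.65, 9.03 and 6.70 CPM in PP, 3.13, 4.11 and 4.39 CPM in DP and 0.187, 0.630 and 0.335 CPM in Neuron. Its Neuron counts were 8, 31 and 13, highest in L357 like those of Fgf15. Etv4 fell 2.01-fold in the first step (log2 fold change -1.01 ± 0.24, adjusted p = 0.00594) and 9.80-fold in the second (log2 fold change -3.29 ± 0.31, adjusted p = 1.90e-06). Without L357 the second step was log2 -3.89. Etv5 made up 91.8% ± 0.427 of the level per kilobase of the pair in PP, 88.1% ± 2.56 in DP and 93.0% ± 2.88 in Neuron, and this share missed the threshold (exact permutation p = 0.075, adjusted 0.075).

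The Sprouty genes, which encode inhibitors of receptor tyrosine kinase signalling, took 3 courses. Spry4 (chromosome 18, 38745922 to 38760922, mm9, minus strand) had 4.78, 6.88 and 6.70 CPM in PP, 1.58, 1.88 and 2.22 CPM in DP and 0.445, 0.711 and 0.464 CPM in Neuron, with no overlap. Spry4 fell 3.24-fold in the first step (log2 fold change -1.70 ± 0.21, adjusted p = 6.97e-05) and 3.45-fold in the second (log2 fold change -1.79 ± 0.25, adjusted p = 5.58e-05).

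Spry2 (chromosome 14, 106291166 to 106296036, mm9, minus strand) had 28.1, 36.2 and 32.8 CPM in PP, 13.0, 17.9 and 18.9 CPM in DP and 24.3, 28.1 and 27.4 CPM in Neuron. DP lay below both other groups, whose ranges just met. Spry2 fell 1.95-fold in the first step (log2 fold change -0.96 ± 0.14, adjusted p = 0.000211) and rose 1.60-fold in the second (log2 fold change 0.68 ± 0.14, adjusted p = 0.00102). Neuron against PP missed the threshold (log2 fold change -0.28 ± 0.14, adjusted p = 0.0811). It passed in a fit of those 2 groups alone (adjusted p = 0.0304), without L222 (0.0333), without L223 (0.0339) and with a block for the sets of library numbers (0.00786).

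Spry1 (chromosome 3, 37538869 to 37543520, mm9, plus strand) had 3.62, 5.47 and 7.27 CPM in PP, 9.32, 10.6 and 15.5 CPM in DP and 8.52, 10.4 and 11.2 CPM in Neuron. PP lay below both other groups, which overlapped. Spry1 rose 2.15-fold in the first step (log2 fold change 1.10 ± 0.24, adjusted p = 0.00354), and Neuron was 1.83-fold above PP (log2 fold change 0.87 ± 0.24, adjusted p = 0.00652). The second step missed the threshold (log2 fold change -0.23 ± 0.24, adjusted p = 0.398), and without L394, the highest DP library, its sign changed (log2 0.004). Spry2 held 83.0% ± 2.88 of the summed Sprouty level per kilobase in PP, 64.2% ± 3.44 in DP and 78.2% ± 1.24 in Neuron (exact permutation p = 0.00357, the smallest these groups allow, adjusted 0.0107). Spry1 held 9.90% ± 2.51, 32.5% ± 3.42 and 21.1% ± 1.29 of it.

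Dusp6 (chromosome 10, 98725865 to 98730122, mm9, plus strand), the phosphatase that acts on ERK in the cytoplasm, ran against the Ets factor genes. It had 4.13, 5.34 and 10.99 CPM in PP, 6.45, 8.18 and 12.4 CPM in DP and 30.9, 46.1 and 41.6 CPM in Neuron. PP and DP overlapped, and every Neuron library lay above every other library. Dusp6 rose 4.399-fold in the second step (log2 fold change 2.14 ± 0.32, adjusted p = 0.000104) and stood 5.74-fold above PP (log2 fold change 2.52 ± 0.33, adjusted p = 2.45e-05).

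The first step of Dusp6 missed the threshold (log2 fold change 0.38 ± 0.33, adjusted p = 0.386) and moved with single libraries. Within each of the 3 sets of library numbers DP lay above PP, and with a block for these sets the step was log2 0.42 (adjusted p = 0.112). Without L393, the highest of PP, it was log2 0.93 and passed (adjusted p = 0.0204), and without L394 it was log2 0.09 (adjusted p = 0.859). Library L393 also held 94.3 CPM over 7 meningeal fibroblast genes against 13.5 and 24.3 CPM in L222 and L355. Over 7 endothelial genes it held 25.0 CPM against 7.97 and 11.2 CPM, and over 5 pericyte genes 57.3 CPM against 31.7 and 46.8 CPM. In DP, L394, the highest for Dusp6, held 4.20 CPM over the meningeal genes against 8.97 and 3.72 CPM in L223 and L356. It held 9.79 CPM over the endothelial genes against 8.95 and 8.43 CPM. Over the pericyte genes L394 held 8.59 CPM against 13.4 and 9.69 CPM. The part of such cells in the Dusp6 levels was not tested. Per kilobase, Dusp6 ranked 8 of the 10 genes in PP at 2.44 ± 1.31 CPM per kilobase, where it overlapped with Etv4 and Spry1, and 2 in Neuron at 14.1 ± 2.79, where it overlapped with Spry2 at 12.8 ± 0.963.

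**Figure D3:**
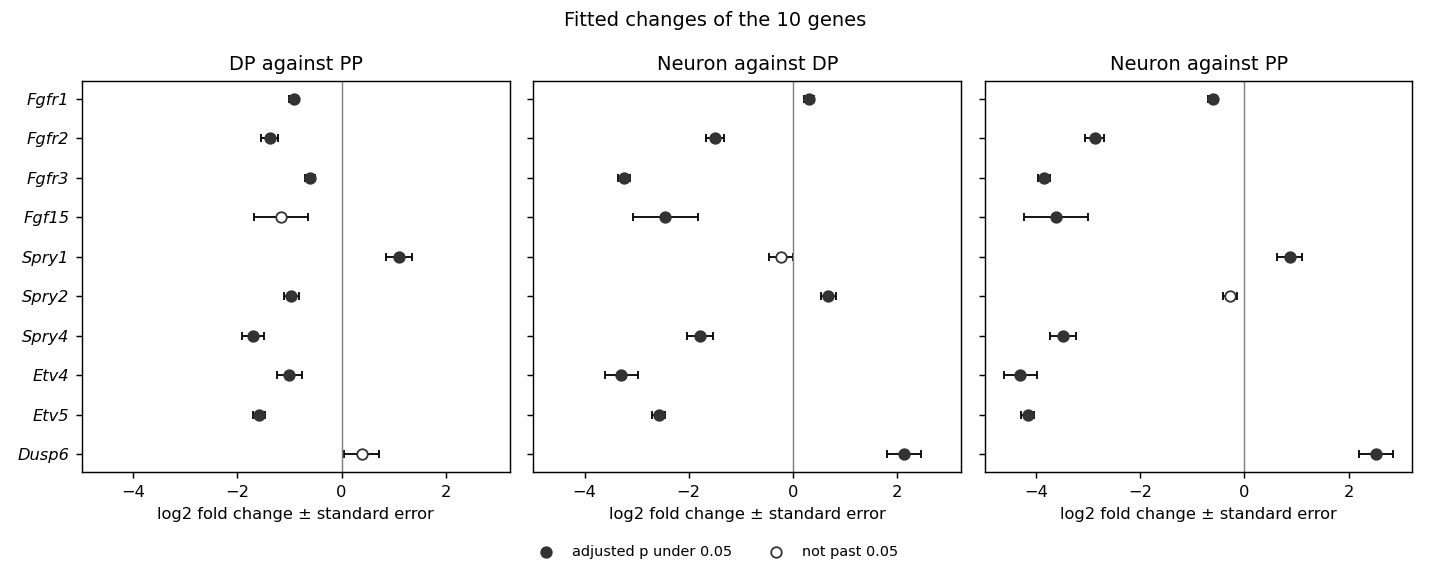
Fitted log2 fold change (x axis, bars are standard errors) of the 10 genes (y axis) in DP against PP, Neuron against DP and Neuron against PP, filled where the adjusted p was under 0.05. Etv4 reaches -4.30 and Etv5 -4.16 in Neuron against PP, while Dusp6 stands at 2.52.

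In the authors' deposited table each of the 10 genes had, in each step, the direction given here. For Fgf15 in the first step the authors' deposited table gives an adjusted p of 0.406, and for Fgfr1 in the second step the authors' deposited table gives log2 0.33 with an adjusted p of 0.00272.

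Some other transcripts had like courses over the 9 libraries. Likeness was the root mean square difference of centred log2 CPM, among 11214 features with a mean of at least 10 CPM in some group. Closest to Fgfr3 were Dusp16, a phosphatase of stress kinases, at 0.0981, the chromatin remodelling gene Hells at 0.129 and Gca at 0.136. Closest to Fgfr1 were the corepressor gene Ski at 0.0717, Bai1 at 0.0916 and Cd3eap at 0.0933. Closest to Fgfr2 were 2900026A02Rik at 0.125, Arpc1b at 0.148 and Tspan18 at 0.218. Closest to Dusp6 were the sodium channel subunit gene Scn2b at 0.258, Adam11 at 0.302 and the synaptic fusion gene Stx1a at 0.313. For Fgf15 the nearest features were farther off, with Ano1 at 0.775, Itgb5 at 0.856 and Slc14a2 at 0.874.

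Other ligand genes were low, and several were highest in Neuron. Of 17 extracellular Fgf genes listed, 14 were found by symbol and 8 passed the filter. Of these, 4 were higher and 1 lower in Neuron against PP (background 36.7% and 38.6%). The 4 higher ones, Fgf5, Fgf9, Fgf10 and Fgf18, had at most 12 counts in any PP or DP library. They passed the filter through Neuron, so the filter itself shaped the count of higher genes. Fgf18 had 0.154 ± 0.0413 CPM in PP, 0.238 ± 0.0444 CPM in DP and 4.84 ± 0.689 CPM in Neuron, 30.2-fold above PP (adjusted p = 4.82e-09). Fgf10 had 0, 2 and 2 counts in PP, 3, 2 and 2 counts in DP and 86, 65 and 45 counts in Neuron, a rise in the second step (adjusted p = 1.23e-06). Fgf5 had 0, 1 and 0 counts in PP, 6, 10 and 5 counts in DP and 45, 41 and 22 counts in Neuron, a rise in both steps (adjusted p = 0.00255 and 0.000120). Fgf9 rose in the second step (adjusted p = 1.72e-05), from 0.138 ± 0.0405 to 0.852 ± 0.179 CPM.

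Fgf2 went the other way, from 1.34 ± 0.0978 CPM in PP to 0.857 ± 0.202 in DP and 0.182 ± 0.0571 in Neuron (7.21-fold in all, adjusted p = 3.21e-06). Its first step passed narrowly (adjusted p = 0.0491) and was lost without any 1 of L222, L355, L393, L223, L356, L357 and L395, with an adjusted p of 0.062 to 0.190. Fgf7 was lowest in DP, at 1.11 ± 0.294, 0.438 ± 0.0601 and 1.07 ± 0.0563 CPM in PP, DP and Neuron (adjusted p = 0.00157 and 0.000841 for the steps). Fgf17 had 0.965, 4.398 and 4.10 CPM in the DP libraries, 0.747 to 0.832 CPM in PP and 1.03 to 1.12 CPM in Neuron. It rose in the first step (adjusted p = 0.00375), although L223 did not share the level of the other DP libraries, and without L223 Neuron was called above PP (log2 0.44, adjusted p = 0.0418). In DP, 4 of the 5 hem and choroid plexus genes were also called higher than in PP (background 21.3%). Their sum was 90.6, 53.3 and 43.2 CPM in L223, L356 and L394, highest where Fgf17 was lowest. The part of such cells in the Fgf17 level was not tested. Fgf20 passed in no comparison over all libraries, but without L355 it was lower than PP in DP (log2 -1.14, adjusted p = 0.0391) and in Neuron (log2 -0.98, adjusted p = 0.0358). Fgf8, which did not pass the filter, had 5, 4 and 1 counts in PP, 4, 10 and 8 counts in DP and 0 in each Neuron library.

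**Figure D4:**
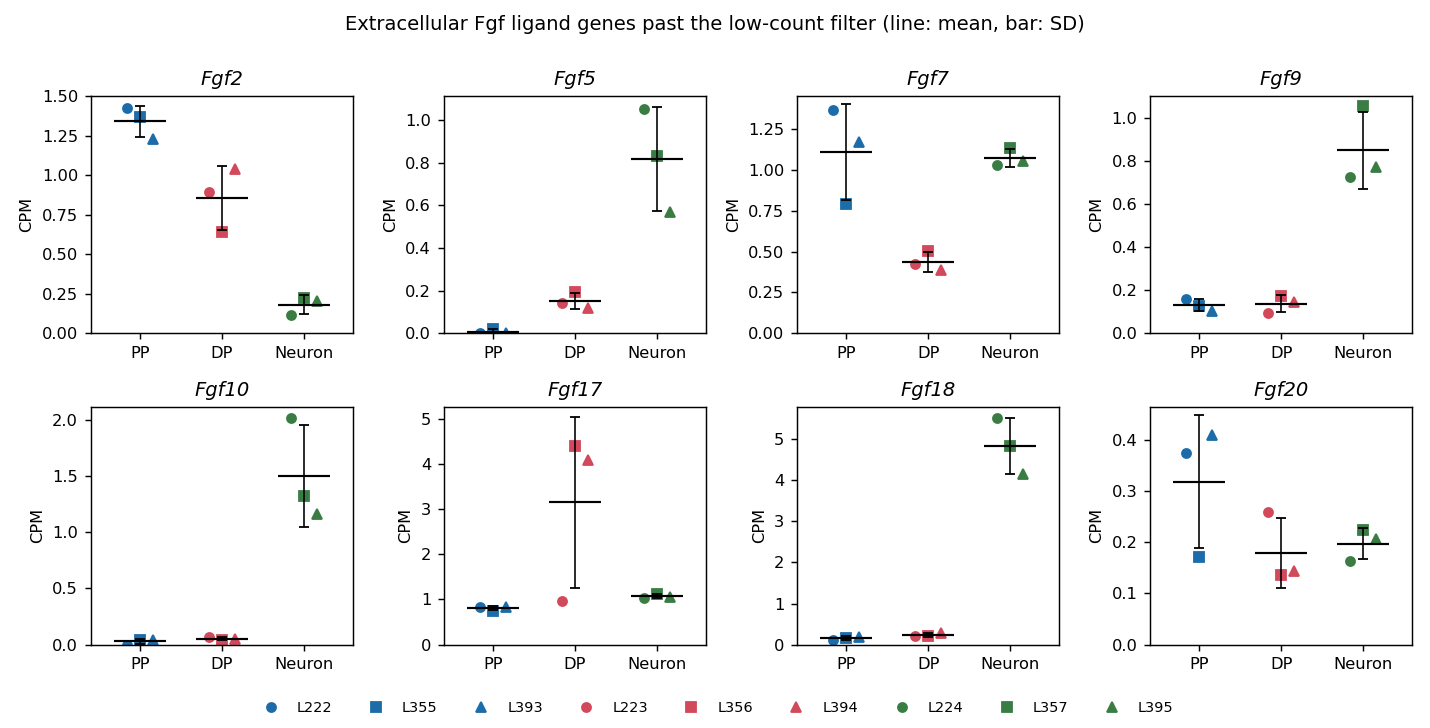
Level in CPM (y axis) of the extracellular Fgf ligand genes that passed the filter, in the 3 libraries of PP, DP and Neuron (x axis), with points for libraries, lines for means and bars for SD. Fgf18 reaches 4.84 ± 0.689 CPM in Neuron (mean ± SD), and DP library L223 lies at 0.965 CPM for Fgf17, below the other DP libraries.

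The Fgf homologous factors, which bind sodium channels inside the cell, were counted apart. Of 4 genes, 1 rose and 3 fell in the first step (background 21.3% and 20.2%) and 4 rose in the second (background 33.1%). Fgf11 rose in both, from 12.8 ± 2.11 to 39.3 ± 7.99 and 67.4 ± 2.55 CPM. Fgf12, Fgf13 and Fgf14 dipped in DP, with Fgf14 at 1.35 ± 0.371, 0.760 ± 0.0386 and 11.6 ± 0.985 CPM in PP, DP and Neuron.

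Counts over the other lists of the pathway compare Neuron with PP, where the background is 36.7% higher and 38.6% lower. As for the ligands, the filter shaped some of these counts. Ret and Hs6st3, both counted as higher, had at most 0.118 and 0.471 CPM in any PP or DP library and passed through Neuron. Fli1, an Ets factor gene counted as lower, passed through PP. It had 0.242 to 0.390 CPM there and at most 0.0965 CPM in any other library. Of 8 other receptors and co-receptors tested, 6 were higher and 1 lower (median log2 2.07). The one that fell was Fgfrl1, a receptor without a kinase domain, from 54.4 ± 3.94 to 4.29 ± 0.678 CPM (12.7-fold, adjusted p = 3.11e-10). L1cam, an adhesion molecule of axons, rose from 11.02 ± 6.13 to 899 ± 63.7 CPM, and Flrt1 and Flrt2 rose 6.41-fold and 6.61-fold. Fgfr4, named after its values were seen, had 0.164 to 0.403 CPM in PP and 2.76 to 3.98 CPM in Neuron.

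Of 23 heparan sulphate genes, 9 were higher and 12 lower (median log2 -0.21). The core protein genes Sdc4, Gpc3 and Sdc2 fell 96.8-fold, 91.2-fold and 16.5-fold, and the sulphotransferase gene Ndst3 rose 43.4-fold. Of 27 adaptor and ERK cascade genes, 20 were higher and 6 lower (median log2 0.46). Gab2, Shc2 and Rps6ka2 rose 3.58-fold, 3.75-fold and 2.77-fold, and the adaptor gene Shc3 fell 6.83-fold.

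Of 17 feedback inhibitor genes beside those above, 5 were higher and 10 lower (median log2 -0.31). Dusp4, a nuclear ERK phosphatase, rose in both steps, from 19.8 ± 4.13 to 129 ± 14.1 and 357.1 ± 29.9 CPM (18.1-fold in all, adjusted p = 2.89e-10). Not every gene of the list is known for acting on ERK, and Dusp16 was named above as a phosphatase of stress kinases. Dusp16 fell 15.7-fold, Dusp10 14.2-fold and the receptor inhibitor gene Lrig1 8.64-fold. The Sprouty relative Spred2, chosen after its values were seen, had 76.4 to 84.8 CPM in PP, 40.2 to 54.9 CPM in DP and 63.2 to 69.5 CPM in Neuron. Like Spry2 it fell and then rose (adjusted p = 0.000108 and 0.000683), but its Neuron level was called below PP (adjusted p = 0.0439). Its relatives took other courses. Spred1 fell in both steps (adjusted p = 5.56e-05 and 0.000128). Spred3 fell in the first (adjusted p = 0.000360), and its second step missed the threshold (adjusted p = 0.114).

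Of 14 other Ets factor genes, 2 were higher and 10 lower (median log2 -1.15). Etv1, of the same subfamily as Etv4 and Etv5, fell in both steps, from 26.4 ± 3.39 to 14.0 ± 2.21 and 5.27 ± 0.982 CPM (4.98-fold in all, adjusted p = 9.40e-08). Elk3 fell 42.6-fold, the repressor gene Erf 18.7-fold and Etv6 2.31-fold. Of 17 genes that respond to ERK in many cells, a list that holds the sorted gene Btg2, 6 were higher and 6 lower (median log2 -0.02), near the background. The cyclin gene Ccnd1 fell 47.2-fold and Id1 15.2-fold, while Junb rose 9.42-fold and Myc 5.36-fold. Of 14 other growth factor receptor genes tested, 7 were higher and 7 lower (median log2 0.01), with falls of 77.5-fold for Erbb2 and 33.9-fold for the pericyte marker Pdgfrb, and rises of 79.2-fold for Erbb4 and 24.6-fold for Kit. The interneuron genes summed above rose with Erbb4, and their part in its level was not tested.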

How the data were processed

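The authors deposited whole-number counts per gene and exon lengths for 9 libraries, each sequenced in a single-read run and in a paired-end one. Without roles, the submitters' processing notes list the build mm9, DESeq2 1.4.5, featureCounts 1.4.4, TopHat2 2.0.10 and BWA 0.5.9-r16. The authors' deposited tables give log2 fold changes, a p-value and adjusted p, and a normalised signal, and 319212 of 319212 signal values equalled the added counts over 1 size factor per library within 0.06. The library numbers heading the columns occur in no label, so a column was tied to a group but not to a labelled replicate. They do form 3 sets of consecutive numbers, 1 library per group in each. Deviations from the group means correlated at 0.130 to 0.345 within sets and -0.319 to 0.0106 between them. Deviations within a group cancel out, so positive values within sets go with negative ones between them. The sets may pair the libraries. The main fit and the permutation tests left them out, and a block for them was an alternative. Both runs of a library were added.

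Counts were tested with edgeR 4.0.16 in R 4.3.3 (TMM, filterByExpr, quasi-likelihood test on 9 libraries with group as the only term, Benjamini-Hochberg over 18627 features). CPM use the TMM-scaled totals, as mean ± SD, n = 3. Standard errors are the log2 fold change over the square root of F, and folds are fitted. Shares within a family use counts per exon length and an exact permutation test. The edgeR test, for DP against PP, was checked on simulated data with the same spread for all genes and without sets of libraries. Libraries of a group differed beyond sampling noise (chi-square over degrees of freedom 7.92 to 29.1 for pairs). A stretch counted under 2 identifiers of Fgfr1 lies wholly in the first, so a read can count for more than 1 gene.

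The 10 genes, the 9 pathway lists and the marker lists were chosen with earlier results of these data known. Of each list, up to 4 genes were named, those with the largest absolute change in Neuron against PP among those called and reaching 5 CPM in 1 of these groups, and every ligand past the filter. Alternatives were RLE size factors, DESeq2 1.42.0, no low-count filter, each run kind alone, 2 groups alone, each library left out, and the library with the lowest number of each group left out. Chosen after seeing the data were 2 more, Fgfr2 without the Ctbp2 part and a block for the sets. Unannotated transcripts entered the tests but are not described.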

Additional observations from a re-analysis of the deposited data

How the results depend on the processing

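Of the log2 fold changes of the 10 genes in the 3 comparisons over all alternatives, 527 kept direction and side of the threshold, 12 gained the threshold, 1 changed sign and 0 lost it. The sign change was Spry1 in Neuron against DP, which ranged from log2 -0.37 to 0.00413 with a library left out. Called genes among the 10 numbered 8 to 9, 9 and 9 to 10 in DP against PP, Neuron against DP and Neuron against PP with a library left out. Features called ranged from 6199 to 8008, 11577 to 12710 and 13418 to 14392. The difference in the share of Fgfr1 between Neuron and PP was 44.7 to 46.7 percentage points with a library left out, and that of Spry2 -6.39 to -3.57. With the lowest library number of each group left out they were 45.2 (exact permutation p = 0.133) and -4.17 (exact permutation p = 0.0667), where 2 libraries per group cannot reach 0.05. The Etv5 share changed sign in that setting (-0.057 percentage points, exact permutation p = 0.2) and ranged from -0.10 to 2.75 with a library left out, against 1.21 over all libraries. It passed the threshold in the paired-end runs alone (1.33, exact permutation p = 0.0429), without L223 (p = 0.0429) and without L357 (p = 0.0393). With a replicate block for the sets of library numbers, features called were 9530, 13620 and 14938, against 7714, 12539 and 14035 without it. Genes called among the 10 were then 9, 9 and 10. The block changed the calls of Fgf15 in DP against PP (log2 -1.24, given as -1.16 without it) and Spry2 in Neuron against PP (log2 -0.28 in both) and no other call of the 10. Depth limits Fgf15, Etv4 and Spry4 in Neuron, and Fgf5, Fgf9, Fgf10 and Fgf18 in PP and DP, which rest on few counts.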
